A study of Mus musculus with 12 samples.

Results

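The interaction of Cdc42 genotype and ZnO NP exposure is the difference between what zinc oxide nanoparticles (ZnO NPs) did to gene expression in Cdc42 KO skin and what they did in WT skin. It was calculated for each gene on the log2 scale as (KO+ZnO NPs minus KO) minus (WT+ZnO NPs minus WT), with all 12 libraries. The 18822 genes that passed the low-count filter of edgeR, of 52636 genes in the count table, were all tested, and none was chosen for its response. A positive interaction means that the level rose more, or fell less, with ZnO NPs in KO skin than in WT skin, and a negative one the reverse.

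RNA-seq was performed on full-thickness dorsal skin of C57BL/6 mice 3 months old on day 14, with 3 libraries in each of 4 groups. WT and KO (labelled Cdc42-/-) were the control groups and received the vehicle, normal saline with hydroxypropyl methylcellulose, while WT+ZnO NPs and KO+ZnO NPs were continuously treated with ZnO NPs in that vehicle. The KO mice carried floxed Cdc42 alleles and a Cre driven by the keratin 5 promoter, which is active in basal keratinocytes and the outer follicle, so fibroblasts, fat, vessels and immune cells of the same skin keep the gene. The WT mice carried no Cre, with both Cdc42 alleles floxed or one floxed and the other wild-type, and the study uses the KO as a model of epidermal barrier dysfunction. Whole skin was sequenced, so a lower level of a cell type's transcripts cannot be told apart as fewer such cells or less RNA in each cell.

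Each library held between 21076320 and 28867802 counts on genes, and between 23497 and 25591 genes were detected. The keratinocyte markers Krt5, Krt14, Krt1 and Krt10 and the fibroblast markers Col1a1, Col1a2 and Dcn were at 236 CPM (a gene's counts scaled to the size of its library) or more in every library. The skeletal muscle marker Myh4 ranged from 0.241 to 4126 CPM. The sum of 4 Y-linked genes was 192 to 242 CPM in 5 libraries, all 3 of WT+ZnO NPs, KO 1 and KO+ZnO NPs 1. The other 7 libraries, among them all 3 of WT, held at most 0.0504 CPM of them and between 460 and 1033 CPM of Xist. In the WT arm sex and treatment therefore cannot be told apart, while each KO group held 1 library with and 2 without Y-linked transcripts. The study's methods describe the Cdc42 KO mice as female, which KO 1 and KO+ZnO NPs 1 go against. The main results are therefore given also with the Y-linked level as a covariate, a fit in which the effect of sex can be read only from the KO arm.

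Cdc42 (ENSMUSG00000006699, chromosome 4 from 137319696 to 137357720, minus strand, GRCm38), a small GTPase of cell polarity and the actin cytoskeleton, was read first as a check of the labels. Its level was 606, 628 and 616 CPM in WT and 415, 464 and 440 CPM in KO. With ZnO NPs it was 311, 350 and 317 CPM under the WT label and 365, 453 and 314 CPM under the KO label. The libraries labelled WT+ZnO NPs thus lay below every KO library, which goes against that label, and WT stood above all others. Its ZnO NP response was -0.92 in WT (SE 0.15, edgeR adjusted p = 0.0008) and -0.22 in KO (SE 0.15, edgeR adjusted p = 0.32). The interaction of Cdc42 itself was 0.70 (SE 0.21, edgeR adjusted p = 0.0614) and was not called. Every WT response and every interaction below is read from libraries as they are labelled.

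Interferon response, hair growth and glucocorticoid response hold many of the genes named below. Type I interferons bind surface receptors and act through transcription factors that include IRF9 to switch on antiviral genes, many of which carry a DNA element with repeated GAAA letters in their promoters. Hair follicles cycle between rest and growth, and in growth the inner root sheath and hair shaft make large amounts of dedicated keratins while melanocytes pigment the shaft. Glucocorticoids switch on genes in many tissues, among them Fkbp5, a co-chaperone of their receptor, and Pdk4, which spares glucose and also responds to fasting.

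The response to ZnO NPs differed between genotypes for 1633 of 18822 genes tested (8.68%) at a Benjamini-Hochberg adjusted p under 0.05 in the quasi-likelihood test of edgeR. Of these, 957 had a positive interaction (5.08% of genes tested) and 676 a negative one (3.59%). In WT the response to ZnO NPs was called for 8085 genes (43.0%), of which 3922 rose (20.8%) and 4163 fell (22.1%). In KO it was called for 2759 genes (14.7%), of which 1237 rose (6.57%) and 1522 fell (8.09%). The median interaction of all genes tested was 0.02. With scaling to library size alone it was -0.13, and then 660 of 1661 called genes (39.7%) had a positive interaction, against 58.6% of the calls with TMM scaling, so the balance of directions depends on the scaling.

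Most called interactions consisted of a change in WT that KO did not show at the same threshold. Of the 957 genes with a positive interaction, 863 (90.2%) fell in WT. In KO, 630 of these 863 genes were not called, 207 fell as well and 26 rose. A further 79 rose in KO alone and 15 were called in neither response. Of the 676 genes with a negative interaction, 637 (94.2%) rose in WT. In KO, 595 of these were not called, 28 rose as well and 14 fell. A further 32 fell in KO alone and 7 were called in neither.

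Read by library rather than by test, the group that stood apart was most often WT. All 3 WT libraries lay above the 9 others for 587 of the 1633 called genes, and for 8.5% of all genes tested. They lay below them for 426 called genes, and for 7.38% of all genes tested. Together these 1013 genes were 62.0% of the calls, compared with 15.9% of genes tested. All 3 WT+ZnO NPs libraries lay above the others for 330 called genes and below them for 476, where 6.95% and 7.79% of all genes tested did so. The KO libraries stood apart above for 43 called genes and below for 62, where 3.47% and 3.57% of all genes tested did so. The KO+ZnO NPs libraries stood apart above for 26 called genes and below for 12, where 1.52% and 0.861% of all genes tested did so. The interaction contrast uses all of these levels, so this count describes the called genes and is no separate test of them.

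**Figure D1:**
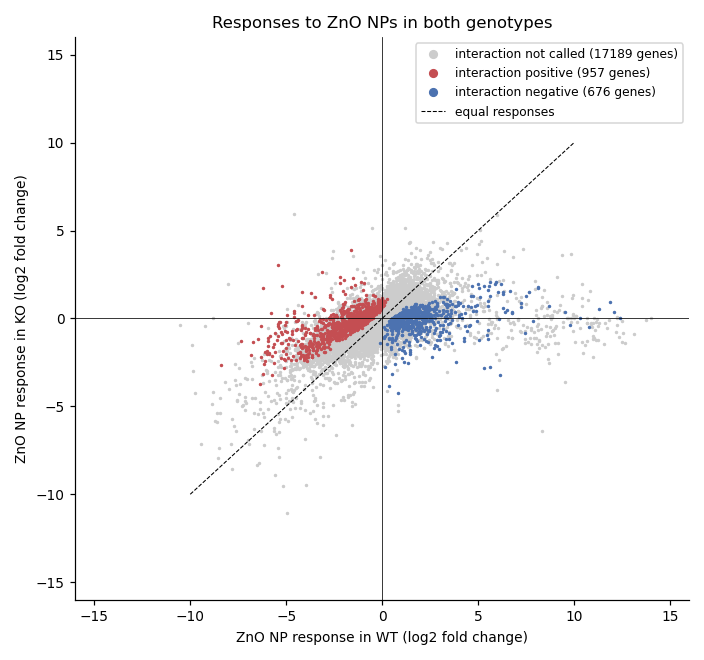
Response to ZnO NPs in WT (x axis) and in KO (y axis) as log2 fold changes from edgeR, 1 point per gene tested. Coloured points are the 957 genes with a positive and the 676 genes with a negative called interaction, grey points the 17189 others. The called genes spread along the x axis more than along the y axis, on the side of a fall in WT for positive and of a rise in WT for negative interactions.

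The number of calls depended on single libraries and on the covariate. It was 461 without WT 2, 540 without WT+ZnO NPs 3, 641 without KO 3, 645 without KO 1, 684 without WT 3 and 945 without WT 1, and at most 1646, without KO+ZnO NPs 2. With the Y-linked covariate 140 genes were called (0.744%), 101 with a positive (0.537%) and 39 with a negative interaction (0.207%). Of these 140, 133 were among the 1633, and all 1633 kept the sign of their interaction. In 118 of the 140 genes all 3 WT libraries stood apart from the 9 others, as in 15.9% of all genes tested and 62.0% of the 1633. This count too describes called genes and is no separate test of them. The KO response was called for 451 genes without KO 2, for 1055 without KO 3 and for 1484 without KO+ZnO NPs 2, and for 1 gene without both KO 2 and KO+ZnO NPs 2, a setting chosen after seeing the data.

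Interferon-stimulated genes were the list with the largest share of called interactions. Of 30 listed genes tested, 27 had a called positive interaction (90.0%, against 5.08% of all genes tested) and none a negative one, with a median of 3.39 against 0.02 over all genes. In WT all 30 fell with ZnO NPs, against 22.1% of all genes, with a median of -3.71 on the log2 scale. In KO none rose and 2 fell, with a median of -0.44. All 3 WT libraries lay above the 9 others for 29 of the 30, against 8.5% of all genes. With the Y-linked covariate 18 of the 30 were called, all positive (0.537% of all genes), and the median was 3.19. Leaving out each library in turn gave 23 to 29 calls.

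Promoters of these genes are shown because the interferon element can be seen in them. The 70-base stretches are from RefSeq promoter windows on GRCm38.p6, 5′ to 3′ on the strand of the gene, and capitals mark every match of GAAANNGAAA or its reverse complement TTTCNNTTTC in the stretch, overlapping matches joined.
Isg15, chr4:156200845-156200914, minus: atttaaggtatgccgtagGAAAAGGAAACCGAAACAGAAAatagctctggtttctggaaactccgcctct
Ifit1, chr19:34640774-34640843, plus: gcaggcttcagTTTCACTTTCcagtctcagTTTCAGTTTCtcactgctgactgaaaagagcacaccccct
Ifit3, chr19:34583377-34583446, plus: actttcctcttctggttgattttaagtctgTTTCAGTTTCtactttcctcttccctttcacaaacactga
Bst2, chr8:71537557-71537626, minus: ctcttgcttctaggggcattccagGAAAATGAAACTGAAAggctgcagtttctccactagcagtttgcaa
Oas3, chr5:120777695-120777764, minus: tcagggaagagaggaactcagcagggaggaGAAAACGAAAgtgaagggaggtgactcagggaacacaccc

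The match nearest the gene start lay 66 to 57 bases before it in Isg15, 85 to 76 in Ifit1, 122 to 113 in Ifit3, 124 to 115 in Bst2 and 75 to 66 in Oas3. Of 27025 genes with a RefSeq window of 250 bases before a start, 936 (3.46%) held the letters on either strand in any window. So did 436 of 12953 genes tested that had a window (3.37%). Among the listed interferon genes called, 21 had a window and 12 of these held a match (57.1%). Of the other called genes with a positive interaction, 48 of 691 with a window held one (6.95%), and of those with a negative interaction, 7 of 485 (1.44%). These matches describe the letters of the windows and are no evidence of binding in these mice.

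Rtp4, a chaperone of surface receptors that interferon switches on, is not on the list and had the smallest p of all genes tested. It was at 120, 101 and 87.8 CPM in WT, at 4.16, 5.53 and 4.07 CPM in WT+ZnO NPs, at 9.44, 11.3 and 11.8 CPM in KO and at 10.2, 7.66 and 12 CPM in KO+ZnO NPs. WT alone was high, WT+ZnO NPs was lowest, and the KO groups overlapped each other. The interaction of Rtp4 was 4.36 (SE 0.28, edgeR adjusted p = 0.00022), or 4.24 with the Y-linked covariate (adjusted p = 0.00462). Rtp4 overlaps the annotated genes Masp1 and Gm45338, and whether the counting used strand is not known.

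Ifit1, whose protein binds foreign RNA, was at 124, 68.8 and 88.4 CPM in WT and at 2.40, 3.06 and 2.81 CPM in WT+ZnO NPs. It was at 4.42, 8.07 and 6.43 CPM in KO and at 5.10, 2.92 and 6.79 CPM in KO+ZnO NPs, so both KO groups were already near the treated WT level. Its interaction was 4.74 (SE 0.47, edgeR adjusted p = 0.00124). The neighbouring Ifit3 behaved alike, at 267, 127 and 164 CPM in WT against 5.16 to 14.9 CPM in the 9 other libraries, with an interaction of 4.82 (SE 0.42, edgeR adjusted p = 0.00096). Ifit3 has a near-identical copy, Ifit3b, so its counts are uncertain between the pair.

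Irf7, the transcription factor that amplifies interferon production, was at 715, 260 and 260 CPM in WT and at 13.4, 25.4 and 13.4 CPM in WT+ZnO NPs. KO held 18.4, 17.3 and 16 CPM and KO+ZnO NPs 25.7, 23.6 and 19.2 CPM. WT 1 was the highest library of both Irf7 and Ifit3, and the other WT libraries were still far above the rest. The interaction of Irf7 was 4.97 (SE 0.57, edgeR adjusted p = 0.00186).

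Bst2, which tethers budding viruses to the cell surface, was at 409, 220 and 225 CPM in WT, at 19.3, 21.1 and 17.4 CPM in WT+ZnO NPs, at 26.7, 32.3 and 32.8 CPM in KO and at 30.5, 45.0 and 31.1 CPM in KO+ZnO NPs. Its interaction was 4.10 (SE 0.35, edgeR adjusted p = 0.00096). Isg15, a ubiquitin-like modifier, was at 128, 76.1 and 67.5 CPM in WT and between 4.27 and 9.18 CPM in the 9 others, with an interaction of 3.71 (SE 0.42, edgeR adjusted p = 0.00186). Further called members of the list were Oas3 (5.09), Oasl1 (5.0) and Oasl2 (3.83) of the oligoadenylate synthetase family that senses double-stranded RNA, and Zbp1 (4.33), a sensor of Z-form nucleic acids. Each of Rtp4, Ifit1, Ifit3, Irf7, Bst2, Isg15 and Oas3 was called without any 1 of the 12 libraries. With the Y-linked covariate Ifit1 (4.46, adjusted p = 0.0164), Ifit3 (4.55, adjusted p = 0.0143), Irf7 (5.18, adjusted p = 0.019), Bst2 (3.81, adjusted p = 0.0143), Isg15 (3.91, adjusted p = 0.0189) and Oas3 (4.74, adjusted p = 0.0247) were called as well.

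**Figure D2:**
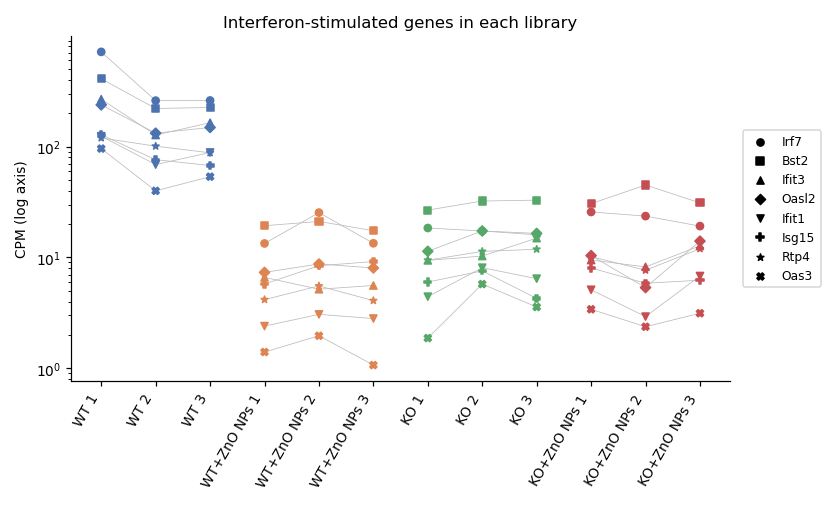
Levels of 8 interferon-stimulated genes in CPM (log axis) in each of the 12 libraries, 1 point per library, by group. In each gene shown the 3 WT libraries lie above the 9 others, and the KO and KO+ZnO NPs points overlap in all but Irf7.

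The signalling members were flatter. The interactions of Stat2 (1.09, edgeR adjusted p = 0.106) and Irf9 (0.89, edgeR adjusted p = 0.158) were not called. Of the receptor chains of type I interferon, Ifnar1 was at 107, 118 and 102 CPM in WT, 37.7, 43.7 and 41.1 CPM in WT+ZnO NPs, 75.9, 100 and 95.7 CPM in KO and 48.6, 44.9 and 46.4 CPM in KO+ZnO NPs. Ifnar1 thus fell in both genotypes (edgeR adjusted p = 3e-05 in WT and 0.00479 in KO), and its interaction of 0.46 was not called (SE 0.17, edgeR adjusted p = 0.112). Ifnar2 was called at 1.25 (SE 0.26, edgeR adjusted p = 0.0212), but not without KO 1, KO 3, WT 2 or WT+ZnO NPs 3. None of 21 annotated interferon ligand genes passed the low-count filter, 13 of them had 0 counts in every library and the largest count of any was 7, so their levels could not be compared at this depth.

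The summed level of the listed interferon genes was 4004, 2327 and 2508 CPM in WT and between 331 and 402 CPM in WT+ZnO NPs. It was between 477 and 591 CPM in KO and between 368 and 591 CPM in KO+ZnO NPs. Among the 7 libraries without Y-linked transcripts, the 3 WT libraries held 2327 to 4004 CPM and the 4 libraries of the KO groups 368 to 591 CPM. The 5 libraries with Y-linked transcripts held 331 to 526 CPM. In KO without ZnO NPs, the 1 library with Y-linked transcripts held 477 CPM and the 2 without them 584 and 591 CPM. All 3 WT libraries lacked Y-linked transcripts, so the part of sex in the WT level was not tested.

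Outside the list, the largest positive interactions among abundant protein-coding genes with separated groups included Phf11b (5.91), Akr1c18 (5.70), Plac8 (5.14), Ifi27l2a (5.13), Cd209g (4.81), Ms4a4c (4.74) and Slfn4 (4.65). Cd209g was not called in 10 of the 12 omissions of a library and Slfn4 not without KO 3 or WT+ZnO NPs 3, and neither was called with the covariate, nor were Akr1c18 and Ms4a4c. Ifi27l2a, itself known to be induced by interferon, was at 562, 595 and 480 CPM in WT and at 40.0, 29.4 and 58.1 CPM in WT+ZnO NPs. It rose in KO, from 41.0, 24.0 and 23.0 CPM to 59.6, 59.7 and 121 CPM (log2 fold change of 1.45, SE 0.35, edgeR adjusted p = 0.0228). Akr1c18, a steroid-reducing enzyme, was at 33.1, 63.6 and 127 CPM in WT, at 4.0, 3.75 and 4.47 CPM in WT+ZnO NPs, at 17.4, 10.2 and 13.3 CPM in KO and at 22.2, 19.3 and 74.8 CPM in KO+ZnO NPs. KO+ZnO NPs 3 was the high library of both genes in its group.

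Macrophage genes fell with ZnO NPs in both genotypes, and further in WT for some. Of 24 tested, 21 fell in WT and 19 in KO, against 22.1% and 8.09% of all genes. The interaction was called for 7, all positive, against 5.08% of all genes, with a median of 1.85. Fcgr1, the high-affinity IgG receptor, was at 221, 170 and 95.5 CPM in WT, at 1.80, 2.70 and 1.58 CPM in WT+ZnO NPs, at 12.8, 22 and 16.4 CPM in KO and at 4.06, 4.08 and 3.18 CPM in KO+ZnO NPs. Its interaction was 4.15 (SE 0.46, edgeR adjusted p = 0.00186), or 3.95 with the Y-linked covariate (adjusted p = 0.0204). Folr2, a folate receptor of tissue-resident macrophages, had an interaction of 4.11 (SE 0.69, edgeR adjusted p = 0.0103). Siglec1, a sialic acid receptor of macrophages, was at 266, 290 and 326 CPM in WT and at 3.44, 7.45 and 4.11 CPM in WT+ZnO NPs, against 36.9, 47.4 and 36.9 CPM in KO and 14.0, 9.52 and 6.27 CPM in KO+ZnO NPs (interaction 3.85, SE 0.45, edgeR adjusted p = 0.00199).

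The macrophage chemokines Ccl6 (4.43, SE 0.81, edgeR adjusted p = 0.0129) and Ccl9 (3.86, SE 0.74, edgeR adjusted p = 0.015) were the positive calls among 47 chemokines, cytokines and their receptors, and Ccr10 (-1.75) the negative one, fewer than the 8.68% of all genes called. Of the 47, 25 fell and 3 rose in WT, against 22.1% and 20.8% of all genes. In KO 14 fell and none rose, against 8.09% and 6.57%. Ccr10 was not called without KO 3 or WT 2. Ccl6 fell in WT from 1115, 1485 and 571 CPM to 20.6, 35.3 and 17.1 CPM, and was at 109, 212 and 122 CPM in KO and 85.2, 112 and 21.7 CPM in KO+ZnO NPs. The macrophage count was not stable. Only 2 of 24 were called without KO 3, WT 2 or WT+ZnO NPs 3, and with the Y-linked covariate. Fcgr1, Folr2, Siglec1 and Ccl6 were each called without any 1 library, but Ccl6 and Ccl9 were not called with the covariate (adjusted p = 0.0749 and 0.0872).

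Genes of blood vessels and fat fell in WT, and few of them were called in KO. Of 24 endothelial genes tested, 19 fell in WT and 2 in KO, and 9 had a called positive interaction (median 1.55). Over all genes tested 22.1% fell in WT, 8.09% fell in KO and 5.08% had a positive interaction. The count of 9 lay between 1 and 12 as single libraries were left out. Vwf, the von Willebrand factor of endothelium, was at 152, 119 and 144 CPM in WT, 20.7, 35.3 and 26.3 CPM in WT+ZnO NPs, 92.3, 131 and 119 CPM in KO and 77.3, 191 and 89.3 CPM in KO+ZnO NPs. Its interaction was 2.40 (SE 0.46, edgeR adjusted p = 0.015) and was called without any 1 library, though not with the Y-linked covariate (1.73, adjusted p = 0.125). Pecam1, an adhesion molecule of endothelium, was called at 2.27 (edgeR adjusted p = 0.0328), but only without KO+ZnO NPs 1, 2 or 3 or WT+ZnO NPs 2 among the 12 omissions. Of the endothelial list, none was called with the covariate.

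Of 20 adipocyte genes tested, 12 fell in WT and none was called in KO, against 22.1% and 14.7% of all genes. The interaction was called for 2, Cd36 and Fabp4, a count near the 8.68% of all genes called. Cd36, a fatty acid transporter, was at 1339, 1899 and 1411 CPM in WT, 262, 307 and 201 CPM in WT+ZnO NPs, 587, 654 and 782 CPM in KO and 638, 471 and 379 CPM in KO+ZnO NPs, with an interaction of 2.15 (SE 0.34, edgeR adjusted p = 0.00874). Fabp4, a fatty acid binding protein, was called at 2.64 (SE 0.57, edgeR adjusted p = 0.0236), but not without KO 3, WT 2, WT 3 or WT+ZnO NPs 3. Both were called with the Y-linked covariate (adjusted p = 0.0422 and 0.0335). KO+ZnO NPs 2 was low in adipocyte transcripts. Adipoq, the adipocyte hormone adiponectin, was at 6.70 CPM there against 427 and 391 CPM in the other KO+ZnO NPs libraries. Without that library 13 of the 20 were called, and without KO 3 only 1.

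Most inner root sheath genes and growth regulators of the hair follicle rose with ZnO NPs in WT, as did 9 of 14 hair shaft keratins, but only 11 of 54 keratin-associated proteins were called there, near the 20.8% of all genes that rose. With 1 exception no gene of these lists was called in KO. The follicle keratins were near 0 in the WT controls, while KO 1 and KO 3 held them. Of 11 inner root sheath genes tested, all 11 rose in WT and 5 had a called negative interaction. The median interaction was -10.15, or -9.32 with the 2 genes at the detection floor set to their bound (3 counts per library). Of 26 hair follicle growth regulators, 22 rose in WT, 1 fell in KO, and 10 had a called negative interaction (median -2.42, against 3.59% of all genes called negative). That count lay between 1, without WT 2, and 13 as single libraries were left out, and was 0 with the Y-linked covariate. None of the 14 hair shaft keratins other than Krt35, and none of 54 keratin-associated proteins, had a called interaction in edgeR. These counts were not stable. Without KO+ZnO NPs 1 edgeR called 29 keratin-associated proteins and 8 hair shaft keratins, without KO 2 it called 4 of each, and DESeq2 called 33 and 12 with all libraries. The edgeR medians were -8.88 and -6.84 with genes at the floor, 8 and 50 of them, set to their bound.

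Krt71, a keratin of the inner root sheath, was at 0.42, 0 and 0.17 CPM in WT, at 220, 1120 and 1808 CPM in WT+ZnO NPs, at 3557, 0.20 and 1022 CPM in KO and at 2541, 2014 and 61.8 CPM in KO+ZnO NPs. KO 2 lay within the range of WT and all other libraries lay far above it. The interaction was -12.39 (SE 3.28, edgeR adjusted p = 0.0432), and it was called only without KO 2 or WT+ZnO NPs 1 among the 12 omissions. Krt73 of the same layer was at 0.21, 0 and 0.17 CPM in WT and at 114, 250 and 585 CPM in WT+ZnO NPs, against 440, 8.20 and 196 CPM in KO and 502, 404 and 41.2 CPM in KO+ZnO NPs (-10.75, SE 2.14, edgeR adjusted p = 0.0178). Krt25 (-11.73), Krt27 (-10.15) and Tgm6 (-11.29), a transglutaminase, were called too, but not in 11, 10 and 7 of the 12 omissions.

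Hoxc13, the homeobox factor that drives hair keratin genes, was at 1.34, 0.39 and 1.57 CPM in WT, at 92.3, 112 and 155 CPM in WT+ZnO NPs, at 48.5, 4.78 and 26.3 CPM in KO and at 69.4, 17.6 and 14.7 CPM in KO+ZnO NPs. WT stood below and WT+ZnO NPs above all other libraries. Its interaction was -6.43 (SE 1.21, edgeR adjusted p = 0.0148), but it was not called with the Y-linked covariate (-4.75, adjusted p = 0.0681). Shh (-6.20), the signal of the hair matrix, Msx2 (-5.70), a matrix homeobox factor, and Foxe1 (-9.15), a forkhead factor of the follicle, were called in the same direction, and were not called in 10, 5 and 6 of the 12 omissions.

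Lgr5, a receptor on follicle stem cells, varied less within groups. It was at 9.78, 5.16 and 7.65 CPM in WT, at 67.3, 56.9 and 59.5 CPM in WT+ZnO NPs, at 46.0, 25.7 and 41.3 CPM in KO and at 28.1, 34.9 and 25.4 CPM in KO+ZnO NPs. The interaction of Lgr5 was -3.38 (SE 0.37, edgeR adjusted p = 0.00169), or -3.17 with the Y-linked covariate (adjusted p = 0.0247). Jag1, a Notch ligand, was at 46.6, 53.1 and 49.5 CPM in WT and 208, 270 and 229 CPM in WT+ZnO NPs, against 78.7 to 158 CPM in the 6 libraries of the KO groups, with an interaction of -2.38 (SE 0.32, edgeR adjusted p = 0.00435), or -1.89 with the covariate (adjusted p = 0.0247). Cdh3, the P-cadherin of follicle keratinocytes, rose in WT from 15.2, 9.79 and 14.3 CPM to 98.0, 154 and 160 CPM, and was at 69.4, 46.2 and 48.1 CPM in KO and 94.5, 101 and 64.5 CPM in KO+ZnO NPs (-2.73, SE 0.37, edgeR adjusted p = 0.00466, or -2.34 with the covariate, adjusted p = 0.0491). Hoxc13, Lgr5, Jag1 and Cdh3 were called without any 1 library. The inner root sheath list held between 0 (without WT 2) and 7 calls as single libraries were left out, and none with the covariate.

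**Figure D3:**
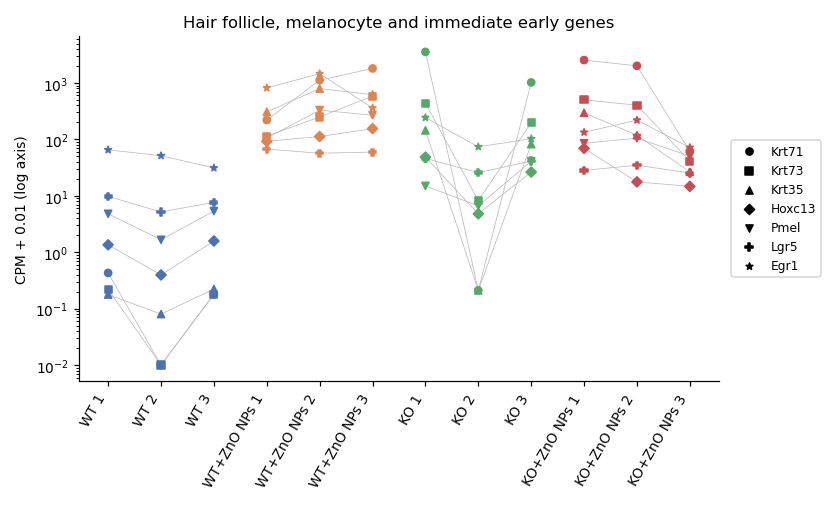
Levels of Krt71, Krt73, Krt35, Hoxc13, Pmel, Lgr5 and Egr1 in each library, as CPM + 0.01 on a log axis, by group. The WT points are lowest, at or near 0 for the keratins, except that KO 2 lies within the WT range for Krt71 and Krt35.

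Most melanocyte genes also rose in WT. Of 18 tested, 13 rose and 1 fell in WT, 2 rose and 2 fell in KO, and 9 had a called negative interaction (median -2.74). Over all genes tested 20.8% rose in WT, 6.57% rose in KO and 3.59% had a negative interaction. Mlana, a protein of the melanosome, was at 0.42, 0.42 and 0.60 CPM in WT, at 21.9, 68.5 and 56.4 CPM in WT+ZnO NPs, at 6.25, 2.21 and 5.06 CPM in KO and at 19.4, 12 and 8.10 CPM in KO+ZnO NPs. Its interaction was -5.12 (SE 0.74, edgeR adjusted p = 0.00582), called without any 1 library and, at -4.30, with the Y-linked covariate (adjusted p = 0.0453). Pmel, the fibril protein on which melanin is laid down, rose from 4.78, 1.65 and 5.35 CPM to 105, 330 and 268 CPM in WT. Its interaction of -3.96 (SE 0.95, edgeR adjusted p = 0.0309) was called only without KO 2, KO+ZnO NPs 2 or WT+ZnO NPs 1 among the 12 omissions. The melanocyte count ranged from 1 to 11 over these omissions and was 1 with the covariate.

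Immediate early genes, which respond within minutes to stress, growth factors and also to tissue handling, rose in WT and were not called in KO. Of 24 tested, 17 rose in WT and 5 had a called negative interaction (median -1.96), against 20.8% and 3.59% of all genes. Egr1 was at 65.2, 51.4 and 31.2 CPM in WT, at 818, 1459.7 and 361 CPM in WT+ZnO NPs, at 243, 73.9 and 103 CPM in KO and at 134, 219 and 71.8 CPM in KO+ZnO NPs, with an interaction of -4.14 (SE 0.86, edgeR adjusted p = 0.0201). Fosb, a partner of Jun in the AP-1 factor, was at 616, 2273 and 236 CPM in WT+ZnO NPs and at 1.19 to 98.7 CPM in the others (-9.34, SE 2.15, edgeR adjusted p = 0.0282). None of the list was called without WT 2, without WT 3, or with the Y-linked covariate.

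**Figure D4:**
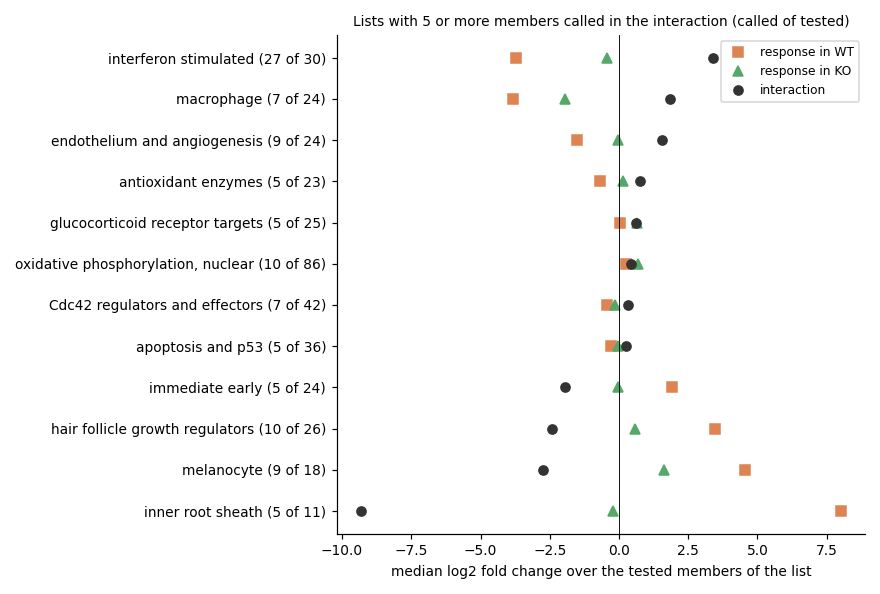
Median log2 fold change of the ZnO NP response in WT and in KO, and of the interaction, for the 12 gene lists with at least 5 called interactions. Members at the detection floor were set to their bound in the WT and interaction medians, but not in the KO medians. In the interferon list the WT median is -3.71 and the KO median -0.44, while in the oxidative phosphorylation list the KO median, 0.70, is larger than the WT median, 0.25.

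A smaller set of interactions rested on a change in KO. Pdk4 (chromosome 6 from 5483351 to 5496309, minus strand, GRCm38), the kinase that shuts off pyruvate dehydrogenase and spares glucose, fell in WT and rose in KO. It was at 206, 146 and 102 CPM in WT, at 61.4, 50.5 and 49.4 CPM in WT+ZnO NPs, at 70.7, 41.3 and 81.1 CPM in KO and at 242, 332 and 377 CPM in KO+ZnO NPs. All KO+ZnO NPs libraries lay above all others. The response was -1.49 in WT (SE 0.30, edgeR adjusted p = 0.00271) and 2.30 in KO (SE 0.31, edgeR adjusted p = 0.00495). The interaction of 3.79 (SE 0.43, edgeR adjusted p = 0.00186) was called without any 1 library and with the Y-linked covariate (3.63, adjusted p = 0.0247).

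Fkbp5 (chromosome 17 from 28399094 to 28517527, minus strand, GRCm38), a co-chaperone of the glucocorticoid receptor that the receptor itself induces, was at 152, 77.8 and 107 CPM in WT and at 74.8, 94.6 and 73.9 CPM in WT+ZnO NPs, which overlapped. It was at 175, 155 and 83.8 CPM in KO and at 342, 345 and 343 CPM in KO+ZnO NPs. The response was 1.32 in KO (SE 0.28, edgeR adjusted p = 0.0167) and -0.47 in WT (SE 0.28, edgeR adjusted p = 0.196). The interaction was 1.79 (SE 0.40, edgeR adjusted p = 0.0256). It was not called without WT 3 or WT+ZnO NPs 3, where its adjusted p reached 0.0687, nor with the Y-linked covariate (2.09, adjusted p = 0.0924). Of 25 glucocorticoid receptor targets tested, 5 had a called positive interaction (5.08% of all genes) and none a negative one (median 0.61), and for 5 all KO+ZnO NPs libraries stood above all others, against 1.52% of genes tested. In KO 6 of the 25 rose, against 6.57% of all genes, and in WT 5 rose and 6 fell, against 20.8% and 22.1%, so the WT counts were near the background. Between 2 and 6 interactions were called as single libraries were left out and 3 with the covariate.

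Other genes that fell in WT and rose in KO were Net1, a guanine nucleotide exchange factor for RhoA, Acer2, a ceramidase, Sesn1, a sestrin induced by p53 and FoxO, and Psma6, a subunit of the proteasome. Net1 was at 274, 296 and 289 CPM in WT, 222, 196 and 205 CPM in WT+ZnO NPs, 209, 160 and 155 CPM in KO and 322, 325 and 381 CPM in KO+ZnO NPs, and its interaction was 1.44 (SE 0.20, edgeR adjusted p = 0.00476). Acer2 had an interaction of 2.16 (SE 0.41, edgeR adjusted p = 0.0148) and Sesn1 of 1.54 (SE 0.23, edgeR adjusted p = 0.00714). Psma6 was at 186 to 200 CPM in WT and 180 to 202 CPM in KO+ZnO NPs, against 125 to 147 CPM in the 6 libraries of WT+ZnO NPs and KO, with an interaction of 1.02 (SE 0.14, edgeR adjusted p = 0.00466). Each of these 4 was called without any 1 library. With the covariate Net1 (adjusted p = 0.0281), Acer2 (adjusted p = 0.0491) and Sesn1 (adjusted p = 0.0424) were called and Psma6 was not (adjusted p = 0.05003). Defb6 (3.30), a defensin of epithelia, and S100a10 (1.99), a partner of annexin A2, had the same opposite responses, and so did Ucp3 (3.40), a mitochondrial carrier of muscle and brown fat. Ucp3 was not called without WT+ZnO NPs 3. With the covariate Defb6 was called (adjusted p = 0.0437) and S100a10 and Ucp3 were not (adjusted p = 0.0685 and 0.104).

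Many oxidative phosphorylation genes rose in KO. Of 86 nuclear genes tested, 67 rose in KO and none fell, against 6.57% of all genes rising. In WT 22 rose, near the 20.8% of all genes that did so, and 1 fell, against 22.1%. The interaction was called for 10, all positive (5.08% of all genes), with a median of 0.42, and 61 of the 86 had all KO libraries below the 9 others, against 3.57% of genes tested. Ndufa4, a subunit associated with cytochrome c oxidase, was at 281, 291 and 252 CPM in WT, 231, 152 and 170 CPM in WT+ZnO NPs, 182, 165 and 169 CPM in KO and 270, 310 and 242 CPM in KO+ZnO NPs, with an interaction of 1.24 (SE 0.23, edgeR adjusted p = 0.0135). Cox7b, a subunit of cytochrome c oxidase, was called at 1.18 (SE 0.26, edgeR adjusted p = 0.0258), with a WT response of 0.00 (SE 0.19), but not in 7 of the 12 omissions. The number called ranged from 1 to 19 as single libraries were left out, was 5 with scaling to library size, and 0 with the Y-linked covariate. The rise in KO was called for 15 of the 86 without KO 2 and for 32 without KO 3, and for 49 to 75 as any other library was left out, counts added after seeing the data.

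Skeletal muscle transcripts differed widely between the same libraries. The summed level of the 33 muscle genes tested was 10879, 3401 and 5761 CPM in KO and 6405, 24999 and 33090 CPM in KO+ZnO NPs, while that of the oxidative phosphorylation genes was 10238, 8863 and 9375 CPM in KO and 12822, 16435 and 16722 CPM in KO+ZnO NPs. WT held 11145 to 13129 CPM of muscle and 11844 to 12143 CPM of oxidative phosphorylation transcripts. WT+ZnO NPs held 44349, 12523 and 21220 CPM of muscle and 16347, 12200 and 13916 CPM of oxidative phosphorylation transcripts. KO 2 was thus the lowest library of both sums, and in each ZnO NP group the library with most muscle transcripts had most of the other. KO+ZnO NPs 1 went the other way, with less muscle than KO 1 or any WT library and more oxidative phosphorylation transcripts than every WT and KO library. Of the 33 muscle genes, 4 rose in KO, with a median of 1.61, and 3 rose in WT, against 6.57% and 20.8% of all genes. The KO count was 0 without KO 2 or without KO+ZnO NPs 2, and 19 without KO+ZnO NPs 1. The interaction was called for Tnnc1, a troponin of slow muscle, alone (median 0.48), and not in 6 of the 12 omissions. The part of muscle in the oxidative phosphorylation results was not tested.

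Of 84 cytosolic ribosomal protein genes, 40 rose in KO and 10 in WT, and 3 interactions were positive and 1 negative. Over all genes tested 6.57% rose in KO, 20.8% rose in WT and 8.68% had a called interaction, so the interaction calls were no more frequent than the background. KO+ZnO NPs 2 stood apart in the summed level of these genes, at 109752 CPM against 74246 and 70655 CPM in the other KO+ZnO NPs libraries, 50797 to 59198 CPM in KO, 53340 to 59284 CPM in WT and 59294 to 68342 CPM in WT+ZnO NPs. The rise in KO was called for 20 of the 84 without KO+ZnO NPs 2, for 24 without KO 1, for 26 without WT 1 and for 2 without KO 2 or without KO 3, also counts added after seeing the data. Rpl35a (0.91) and Rps27l (1.08) were among the positive ones, and were not called in 9 and 6 of the 12 omissions. The median KO response was 0.24 in the fifth of genes with the shortest longest transcript and -0.13 in the fifth with the longest, and the median interaction was 0.23 and -0.10. The part of transcript length in the results on short genes was not tested.

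**Figure D5:**
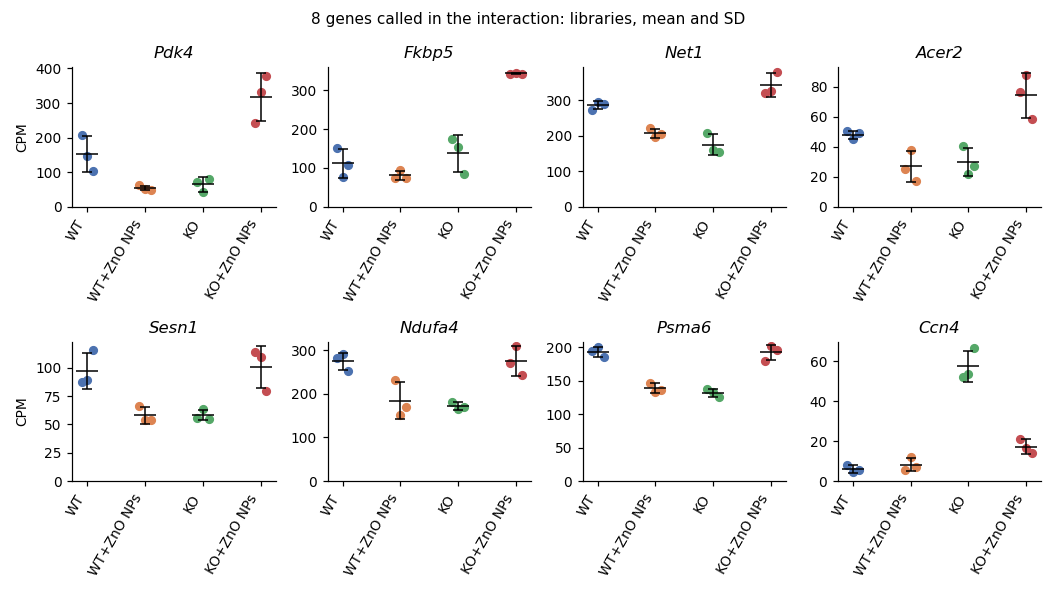
Levels in CPM of Pdk4, Fkbp5, Net1, Acer2, Sesn1, Ndufa4, Psma6 and Ccn4 in each library, with the mean and SD of each group of 3. KO+ZnO NPs stands highest for Pdk4, Fkbp5 and Net1, and KO stands highest for Ccn4.

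Ccn4, a secreted matrix protein of Wnt signalling, was highest in KO and fell there with ZnO NPs. It was at 8.02, 4.42 and 5.78 CPM in WT, 5.76, 12 and 6.96 CPM in WT+ZnO NPs, 52.1, 53.6 and 66.5 CPM in KO and 21.3, 16.7 and 13.8 CPM in KO+ZnO NPs. Its KO response was -1.73 (SE 0.30, edgeR adjusted p = 0.00887) and its interaction -2.17 (SE 0.42, edgeR adjusted p = 0.016), called without any 1 library but not with the Y-linked covariate (adjusted p = 0.104). Nuak1 (-1.80), a kinase related to AMPK, Phldb2 (-1.41), an anchor of microtubules at focal adhesions, and Col27a1 (-1.06), a fibrillar collagen, rose in WT and fell in KO. Phldb2 was not called without WT 2, nor Col27a1 without KO 3 or WT 2. With the covariate Col27a1 was called (adjusted p = 0.0247) and Nuak1 and Phldb2 were not (adjusted p = 0.0931 and 0.0748). Col7a1, the collagen of anchoring fibrils below the epidermis, was at 39.7, 18.0 and 32.4 CPM in WT, 107, 85.9 and 70.5 CPM in WT+ZnO NPs, 610, 591 and 512 CPM in KO and 405, 452 and 205 CPM in KO+ZnO NPs, with an interaction of -2.24 (SE 0.46, edgeR adjusted p = 0.0201) and a KO response of -0.69 that was not called (edgeR adjusted p = 0.168). This interaction of Col7a1 was called without any 1 library but not with the covariate (adjusted p = 0.128). Mmp12, the elastase of macrophages, was at 297, 1388 and 1126 CPM in KO and 67.6, 312 and 81.3 CPM in KO+ZnO NPs, and its interaction of -3.28 (SE 0.91, edgeR adjusted p = 0.0496) was lost in 10 of the 12 omissions.

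Of 23 antioxidant enzymes tested, 5 were called, all positive (5.08% of all genes), and 14 fell and 1 rose in WT, while 2 fell and 2 rose in KO. Over all genes tested 22.1% fell in WT and 8.09% fell in KO, so the KO count was near the background. Without KO 1, WT 2 or WT+ZnO NPs 3, and with the Y-linked covariate, 1 of the 23 was called. Sod3, the extracellular superoxide dismutase, fell in WT from 212, 291 and 246 CPM to 27.5, 37.1 and 21.6 CPM, and in KO from 106, 112 and 65.5 CPM to 56.8, 36.5 and 38.3 CPM, so both responses were called and the fall was larger in WT (interaction 2.01, SE 0.37, edgeR adjusted p = 0.0135, or 2.42 with the covariate, adjusted p = 0.0347). Prdx4 (1.21), Gpx1 (1.03) and Sod1 (0.94) were called with adjusted p of 0.024, 0.0395 and 0.0495 from edgeR, and were not called in 5, 9 and 9 of the 12 omissions. Of 29 NRF2 targets 2 were positive and 1, the cystine transporter Slc7a11 (-3.29), negative, near the 8.68% of all genes called. The NRF2 count was 0 without WT+ZnO NPs 3 and with the covariate, at most 5 over the omissions and 8 with DESeq2, and Slc7a11 was not called without WT 1, WT 3 or WT+ZnO NPs 3. Of 24 zinc-handling genes, the importer Slc39a10 (-2.54) was the single call, and it was not called in 9 of the 12 omissions. Mt1, the metallothionein that binds and buffers zinc, rose in both genotypes, by 1.68 in WT (SE 0.47, edgeR adjusted p = 0.0155) and by 2.42 in KO (SE 0.48, edgeR adjusted p = 0.0134). Its interaction was 0.74 (SE 0.65, edgeR adjusted p = 0.501), with levels of 144, 280 and 165 CPM in WT, 354, 808 and 728 CPM in WT+ZnO NPs, 183, 167 and 125 CPM in KO and 779, 1394 and 361 CPM in KO+ZnO NPs.

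Of 42 regulators and effectors of Cdc42, 5 had a positive and 2 a negative called interaction (8.68% of all genes were called), which became 3 and 3 with scaling to library size. The count of 7 was 0 with the Y-linked covariate and 1 to 8 as single libraries were left out. Dock11, an exchange factor for Cdc42, was at 55.7, 63.2 and 64.6 CPM in WT, 10.2, 16.3 and 13.3 CPM in WT+ZnO NPs, 32.5, 43.5 and 46.2 CPM in KO and 27.2, 24.3 and 20.7 CPM in KO+ZnO NPs (1.45, SE 0.27, edgeR adjusted p = 0.0137). Rhoa, the related GTPase, was called at 0.98 (SE 0.20, edgeR adjusted p = 0.0199), but not without KO 1, KO 3, WT 2 or WT+ZnO NPs 3. Of 36 apoptosis and p53 genes, 5 were positive (5.08% of all genes) and none negative, with 1 call under the covariate and 1 to 6 over the omissions. The smallest p was that of Casp8 (1.12, SE 0.15, edgeR adjusted p = 0.00466), the initiator caspase of death receptors, which fell in WT (-1.43).

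The remaining lists held few calls each. Of 22 dermal fibroblast genes, 15 fell in WT and 5 in KO, against 22.1% and 8.09% of all genes, and Cd34 (1.76), a surface marker of dermal progenitors and vessels, and Gsn (1.46), the actin-severing gelsolin, had a positive interaction. The fibroblast count was 0 to 7 as single libraries were left out, with 7 without WT+ZnO NPs 2. The counts of called interactions that follow are to be read against 8.68% of all genes, and those of collagens, NF-kB targets, barrier lipid enzymes and mitochondrial transcripts lay below it. Of 22 collagen genes on the collagen list, which leaves out Col7a1 and Col27a1, Col16a1 (-1.32) alone was called, and of 19 matrix metalloproteinase and inhibitor genes Mmp28 (2.16), made by keratinocytes, and Mmp12 were. Of 30 genes of the unfolded protein and heat shock responses, 3 were positive, among them Sdf2l1 (1.25) of the endoplasmic reticulum, and 1 negative, the stress factor Atf3 (-4.68). Of 27 NF-kB targets 2 were called, the receptor Cd40 and the survival factor Bcl2l1, both positive. Krt17 (-1.94) was the single call among 6 stress and companion layer keratins, and Asah1, a ceramidase, the single call among 20 barrier lipid enzymes. The mitochondrial transcript mt-Nd3 (-2.33, SE 0.37, edgeR adjusted p = 0.00808) was the single call among 13 of its genome, at 12.6, 13.5 and 16.3 CPM in WT and 71.1, 44.0 and 36.2 CPM in WT+ZnO NPs, against 13.2 to 28.4 CPM in the 6 libraries of the KO groups. Each of these lists gave no more than 4 calls. Bcl2l1 and Asah1 were not called in 11 of the 12 omissions, Col16a1 in 10, Atf3 in 9, Sdf2l1 in 8, Gsn in 6, Cd34 in 5 and Krt17 in 4, whereas Cd40, Mmp28 and mt-Nd3 were called without any 1 library. With the Y-linked covariate Mmp28 was called (adjusted p = 0.0253) and Cd40 and mt-Nd3 were not (adjusted p = 0.0914 and 0.0711).

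Of the genes the study names, Trim63, a ubiquitin ligase of muscle atrophy, had an interaction of 2.25 that was not called (SE 0.66, edgeR adjusted p = 0.0587). It was at 41.0, 37.8 and 23.1 CPM in WT, 43.4, 31.4 and 27.3 CPM in WT+ZnO NPs, 30.3, 13.9 and 12.7 CPM in KO and 49.6, 159 and 62.4 CPM in KO+ZnO NPs, with KO+ZnO NPs 2 highest. Thbs1, the matrix protein thrombospondin-1, was at 240, 364 and 267 CPM in WT, 442, 551 and 133 CPM in WT+ZnO NPs, 388, 233 and 142 CPM in KO and 104, 130 and 35.2 CPM in KO+ZnO NPs. Its interaction of -1.87 was not called (SE 0.80, edgeR adjusted p = 0.162).

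Of 45 lists examined, 35 held at least 1 called interaction and 10 held none. Among the latter, 19 of 42 cornified envelope genes fell in WT and 9 in KO, 26 of 40 cell cycle genes rose in WT and 18 in KO, and 10 of 24 T cell genes fell in WT and 15 in KO. Over all genes tested 22.1% fell and 20.8% rose in WT, and 8.09% fell and 6.57% rose in KO. For MHC class II and Langerhans genes 14 of 19 fell in WT and 11 in KO. No difference between the genotypes was called for any member of these lists, which does not show that the responses were equal. Protein-coding genes were called more often (9.68% of 15560) than long non-coding genes (4.39% of 1961) or pseudogenes (3.38% of 1066). The fifth of genes with the highest mean level held 364 positive and 122 negative calls, against 28 and 84 in the fifth with the lowest. The median interaction was 0.10 in the fifth of genes with the lowest GC content and -0.09 in the fifth with the highest.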

How the data were processed

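Per the labels and the study's methods, RNA was extracted with Trizol and sequenced as paired-end reads on an Illumina HiSeq. The authors deposited a table of whole-number read counts per gene, without normalization, for 12 libraries. The study's methods name STAR and HTSeq for alignment and counting and a NEBNext kit, whereas the submitters' processing notes name HISAT2 2.0.5 with mm10 and the labels a TruSeq kit. Neither the release of the annotation nor whether strand was used is given in the sources used here. HTSeq, where used with its defaults, discards reads shared by overlapping genes, which lowers their counts.

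Names and positions of 52403 of the 52636 genes were matched to GENCODE on GRCm38. The deposited counts were fitted with edgeR 4.0.16 in R 4.3.3, with TMM factors, its low-count filter, 1 coefficient per group and all 12 libraries (common dispersion 0.109). The quasi-likelihood test was applied to each contrast, with Benjamini-Hochberg adjustment over the 18822 genes tested, and every adjusted p in the text comes from it, also those with the Y-linked covariate. Each SE is approximate, being the absolute log2 value divided by the root of its F statistic, and levels are CPM on TMM-scaled library sizes. Each group had 3 mice as far as the labels state, and the 12 pairs of replicates differed far beyond sampling noise (chi-square per degree of freedom from 40.8 to 178), so none was a duplicate. Replicate numbers did not pair the samples. The steps were tested on simulated data.

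Alternatives were RLE factors, library size only, no filter, a block for the replicate number, at least 10 counts in every library, autosomal genes only, the Y-linked covariate, limma 3.58.1 voom with quality weights, DESeq2 1.42.0, each library left out in turn, and 1 setting added after seeing the data. The genes named are the 12 with the highest and the 12 with the lowest interaction among called protein-coding genes that averaged 10 CPM or more and whose groups were separate in at least 1 ZnO NP response, up to 3 called genes with the smallest p per list or, where none was called, its 2 most abundant members, and Cdc42, Fkbp5, Trim63 and Thbs1. Outside this rule, chosen after their values were seen, were Rtp4, Isg15, Oasl2, Stat2, Irf9, Ifnar1, Ifnar2, Siglec1, Pecam1, Adipoq, Lgr5, Jag1, Pmel, Net1, Acer2, Defb6, S100a10, Ucp3, Ccn4, Col27a1, Phldb2, Nuak1, Psma6, Sod1 and Mt1. All genes, lists and tests were chosen with earlier results of these data known. Promoter sequences are from RefSeq. Some genes are not reported here.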

Additional observations from a re-analysis of the deposited data

Results flagged for a closer look

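The difference between the ZnO NP responses of the genotypes was tested itself, by the interaction term. It passed the threshold for 1633 genes, of which 957 had a positive and 676 a negative interaction. Among the genes the study names, Fkbp5 passed it, with an interaction of 1.79 on the log2 scale (SE 0.40, edgeR quasi-likelihood test, adjusted p = 0.0256).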

How the results depend on the processing

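The number of called interactions, 1633 in the fit reported, was 3205 with DESeq2, 2556 with limma voom, 1086 without a filter on low counts and 140 with the Y-linked covariate, and between 461 and 1646 as single libraries were left out. The WT response, 8085 genes, was called for 3982 with the covariate, and for 5942 to 9095 as single libraries were left out. The KO response, 2759 genes, was called for 4372 with DESeq2, 1756 with limma voom and 451 to 3195 as single libraries were left out. It was called for 1 gene without both KO 2 and KO+ZnO NPs 2, a setting chosen after seeing the data, in which 4184 genes had an unadjusted p under 0.05. With the replicate number as a block, 1429 interactions were called, of which 1245 were among the 1633. The numbers did not pair the samples, since only 4 of 18 same-numbered pairs had a correlation of deviations over 0.1 (range -0.343 to 0.429). DESeq2 shared 1631 and limma voom 1509 of the 1633 calls, and the fit with covariate 133. Of the results for named genes under the 22 alternatives, 591 were no longer past the threshold and 22 passed it only there. Of results past the threshold in either fit, 0 changed sign. Some interactions that were called in neither fit did change sign. The causes of these differences were not tested. Ligand genes of interferon and most keratin-associated proteins in WT were limited by depth.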
